A study of Mus musculus with 9 samples.

Results

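The proteasome subunit genes described here were the protein-coding mouse genes whose symbols consist of Psma, Psmb, Psmc or Psmd and a number, without the interferon-inducible subunits Psmb8, Psmb9 and Psmb10. The rule used gene names alone and no measured value. It took 36 of the 55335 gene identifiers in the deposited tables: 16 of the core particle (Psma and Psmb) and 20 of the regulatory particle (Psmc and Psmd). Low read counts removed 2 of them, so that 34 were tested, 14 of the core particle and 20 of the regulatory particle.

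The cells were D2A1-d, a line of mouse mammary tumour cells that serves in work on dormant metastases, and their RNA was sequenced after knockdown of Med4, a subunit of the Mediator complex that connects transcription factors with RNA polymerase II. Cells were transduced with a non-targeting control hairpin (NTC, labelled wild type) or with 1 of 2 short hairpin RNAs, shMed4 #1 and shMed4 #4 (labelled Med4 knockdown). All 3 groups were otherwise untreated, came from the same line and held 3 libraries labelled as biological replicates, 9 in all. The labels give neither the time after transduction nor whether replicates were transduced or only grown apart, so the p-values cover only the differences among these libraries, which may be technical.

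The proteasome is the large protease that degrades ubiquitin-tagged proteins. Its core particle is a stack of rings, with outer alpha rings that gate entry and inner beta rings that carry the proteolytic sites. Its regulatory particle has a base, whose ATPases unfold the substrate and thread it into the core, and a lid, which removes ubiquitin. Dedicated chaperones put the base together and then leave. When proteasome activity falls, the transcription factor NFE2L1 is known to raise the subunit genes together.

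Med4 itself was read first, as a check of the labels. It held 236, 216 and 204 reads in the NTC libraries, 40, 35 and 38 with shMed4 #1 and 66, 60 and 50 with shMed4 #4. The log2 fold change was -2.59 with shMed4 #1 (edgeR adjusted p = 3.92e-18) and -1.92 with shMed4 #4 (edgeR adjusted p = 8.44e-16), and the hairpins differed by 0.67 (edgeR adjusted p = 0.00401). Libraries held 7572114 to 8582235 reads in genes, of which mitochondrial genes took 4.43 to 4.58% in NTC, 5.51 to 6.12% with shMed4 #1 and 5.81 to 6.04% with shMed4 #4.

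Marker levels were uneven within lists and moved with the groups. Of 5 epithelial markers, Cdh1 had 0 reads in all 9 libraries, Epcam 1 and Krt19 8, while the keratins Krt8 and Krt18 rose with both hairpins, so that the list summed to 23.5 to 25 in NTC, 93.7 to 111 with shMed4 #1 and 175 to 201 with shMed4 #4 (CPM, TMM-scaled counts relative to the reads in genes of each library). The 4 mesenchymal markers summed to 5596 to 6009 CPM in NTC, 5898 to 6076 CPM with shMed4 #1 and 5334 to 5901 CPM with shMed4 #4, with Vim lower (log2 fold change -0.38 and -0.82) and Fn1 higher (0.16 and 0.24) with both hairpins and Sparc higher with shMed4 #1 (0.36). Myoepithelial and fibroblast markers (4) summed to 343 to 367, 816 to 846 and 1061 to 1208 CPM, with Acta2 and Col1a1 higher and Pdgfra lower with both hairpins. Leukocyte markers (5 reported) summed to 12.3 to 16.9, 11.1 to 13.1 and 11.1 to 13.4 CPM, most of it Csf1r (769 reads in all, not called), with Cd3e at 0 reads, Tyrobp at 7 and Ptprc at 12, and Lyz2 lower with both (-1.45 and -1.75). Exons of Hmgxb3 on the other strand overlap 15.1% of Csf1r, and their reads are not told apart if the counting ignored strand. Endothelial markers (3) summed to 0.904 to 1.74, 2.49 to 3.93 and 1.83 to 3.10 CPM, most of it Cdh5, which was higher with both (1.55 and 1.41), with Kdr at 1 read. The part of these marker differences and of the mitochondrial share in the proteasome results was not tested.

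Proteasome subunit transcripts changed little, and in both directions, with either hairpin. With shMed4 #1, 5 of the 34 genes rose and 7 fell at an edgeR adjusted p under 0.05, where 21.8% of all 14335 tested genes were called higher and 19.8% lower. With shMed4 #4, 10 rose and 8 fell, where 27.8% of all tested genes were called higher and 27.3% lower. The sizes were small: 0 of the 34 were called at 1.5-fold or more with shMed4 #1, where 12.7% of all tested genes were, and 1 of 34 with shMed4 #4 (Psmd10), where 21.5% were. Among the 7340 tested genes whose mean level lay in the members' own range (24.0 to 397 CPM), these shares were 5.31 and 11.5%. The median absolute log2 fold change of the members was 0.08 with shMed4 #1 and 0.14 with shMed4 #4, beside 0.21 and 0.28 over all tested genes and 0.16 and 0.22 over those in the same range of levels. In bulk RNA, fewer cells expressing a gene and less RNA per cell cannot be told apart, and the libraries measure transcripts, not assembled particles or their activity.

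**Figure D1:**
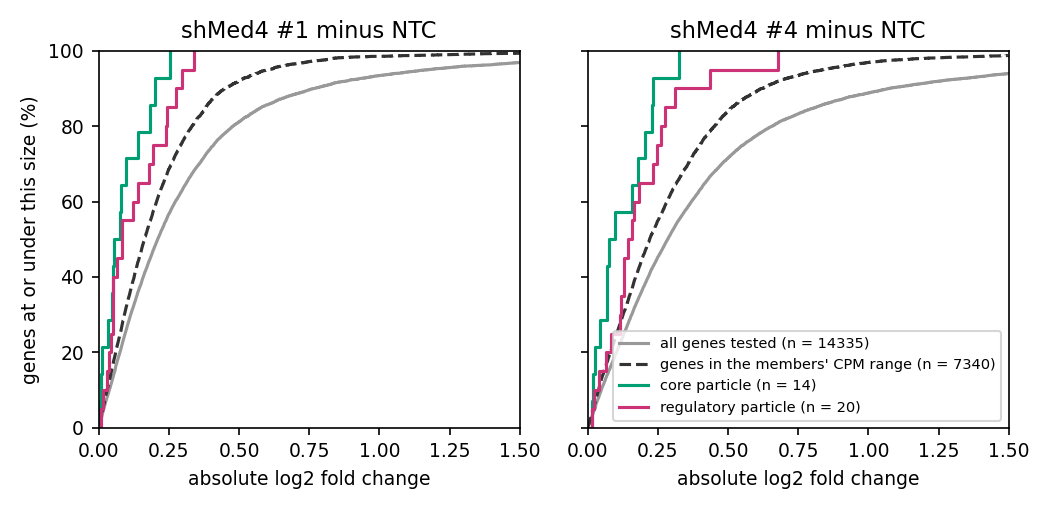
Cumulative share of genes (vertical axis, %) by absolute log2 fold change (horizontal axis) for each hairpin against NTC. Lines show all 14335 tested genes, the 7340 in the members' range of CPM, the 14 core particle genes and the 20 regulatory particle genes; with each hairpin the 2 member lines run to the left of the others over most of their height, and 1 regulatory particle gene reaches 0.68 with shMed4 #4.

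The core and the regulatory particle were compared with NTC separately. In the core particle, 2 of 14 genes rose and 2 fell with shMed4 #1, and 3 rose and 2 fell with shMed4 #4; the median log2 fold changes were 0.04 and -0.02, where all tested genes had a median of -0.01 with each hairpin. In the regulatory particle, 3 of 20 rose and 5 fell with shMed4 #1, and 7 rose and 6 fell with shMed4 #4, with a median of -0.03 each time. With shMed4 #4 this split moved with the scaling, since under upper-quartile factors 1 core gene was called higher and 4 lower, and 3 regulatory particle genes higher and 8 lower. That scaling also lowered the median of all tested genes with shMed4 #4, to -0.058.

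These small counts also moved with single libraries. In the core particle with shMed4 #1, the count of rises was 1 without NTC replicate 2 or without shMed4 #1 replicate 3 and 4 without shMed4 #1 replicate 1. The count of falls there was 0 without NTC replicate 1 and 1 without NTC replicate 3, shMed4 #1 replicate 1 or shMed4 #1 replicate 3. Without shMed4 #4 replicate 2 the core particle had 1 fall with shMed4 #4. In the regulatory particle, falls with shMed4 #1 numbered 3 without shMed4 #1 replicate 3. Rises with shMed4 #4 numbered 4 without NTC replicate 2, and falls with shMed4 #4 numbered 3 without shMed4 #4 replicate 3.

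The summed level of each particle stayed close to that of NTC. Over the core particle genes, the CPM summed to 1601 ± 47.3 in the NTC libraries, to 1634 ± 82.5 under shMed4 #1 and to 1609 ± 56.8 under shMed4 #4 (SD, n = 3). Over the regulatory particle genes it was 2835 ± 44.8, 2772 ± 1.05 and 2832 ± 50.5 (SD, n = 3). The sum of the regulatory particle divided by that of the core gave 1.77 ± 0.0255 for NTC, 1.70 ± 0.0854 for shMed4 #1 and 1.76 ± 0.0442 for shMed4 #4 (SD, n = 3). These differences from NTC were smaller than the larger SD of the groups compared, except for the regulatory sum with shMed4 #1, whose 3 libraries (2771, 2771 and 2773 CPM) were all below the lowest NTC library (2791 CPM).

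**Figure D2:**
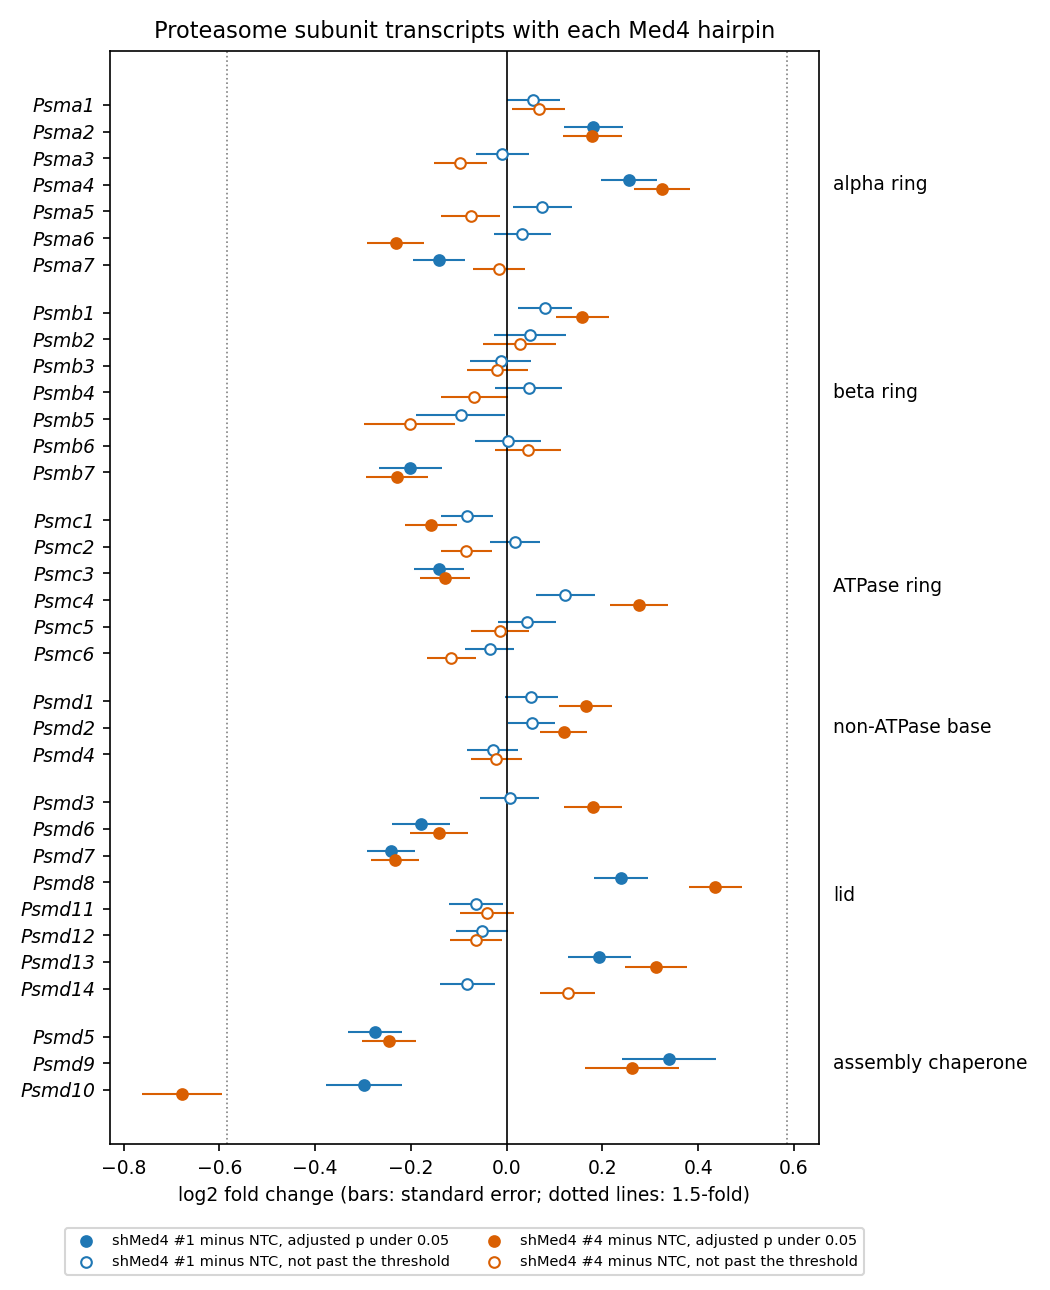
Log2 fold change of each of the 34 tested subunit genes (horizontal axis) with shMed4 #1 (blue) and shMed4 #4 (orange) against NTC, grouped by role, with bars for the standard error and dotted lines at 1.5-fold. Filled points passed an edgeR adjusted p under 0.05; values run from -0.68 (Psmd10, shMed4 #4) to 0.44 (Psmd8, shMed4 #4), and rises and falls stand side by side in the alpha ring, the ATPase ring, the lid and the chaperones.

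Across the 34 genes, 5 rose with both hairpins (Psma2, Psma4, Psmd8, Psmd9 and Psmd13), where 17.4% of all tested genes did. Another 6 fell with both (Psmb7, Psmc3, Psmd5, Psmd6, Psmd7 and Psmd10), where 15.8% did. No gene was called in opposite directions, 1 passed with shMed4 #1 alone (Psma7), 7 passed with shMed4 #4 alone (Psma6, Psmb1, Psmc1, Psmc4, Psmd1, Psmd2 and Psmd3), and 15 (44.1%) passed with neither, where 37.4% of all tested genes passed with neither. Both comparisons use the same 3 NTC libraries, so that a call with both hairpins is not 2 independent observations.

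In the alpha ring, 2 of 7 genes rose with each hairpin and 1 fell with each. Psma4 (chromosome 9, 54950790 to 54958030 in GRCm38), an alpha ring subunit, was at 155, 138 and 133 CPM in NTC, 172, 176 and 161 CPM with shMed4 #1 and 186, 169 and 179 CPM with shMed4 #4. All 6 knockdown libraries were above all NTC libraries, by 19.4% with shMed4 #1 (log2 fold change 0.26, standard error 0.058, edgeR adjusted p = 0.0005) and 25.3% with shMed4 #4 (0.33, standard error 0.058, edgeR adjusted p = 1.08e-05). It was the core particle gene with the largest change in either comparison.

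Psma2, another alpha ring subunit, was at 80.6, 78.8 and 80.5 CPM in NTC, 87.8, 89.7 and 94.4 CPM with shMed4 #1 and 95.9, 83.9 and 91.8 CPM with shMed4 #4. Again no knockdown library overlapped NTC, and the log2 fold change was 0.18 with each hairpin (edgeR adjusted p = 0.016 and 0.013). The Psma2 call with shMed4 #1 was lost without NTC replicate 2 (edgeR adjusted p = 0.0589) or shMed4 #1 replicate 3 (0.0886), and that with shMed4 #4 without shMed4 #4 replicate 1 (0.0707).

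Psma6, also of the alpha ring, was at 144, 120 and 131 CPM in NTC, 131, 142 and 132 CPM with shMed4 #1 and 112, 110 and 115 CPM with shMed4 #4. The shMed4 #4 libraries lay below all others, whereas shMed4 #1 overlapped NTC. Psma6 fell with shMed4 #4 (log2 fold change -0.23, edgeR adjusted p = 0.00125) and not with shMed4 #1 (0.03, edgeR adjusted p = 0.69), and the hairpins differed by -0.26 in the direct test (edgeR adjusted p = 0.00079).

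Psma7 showed the other order, with 183, 177 and 186 CPM in NTC, 169, 174 and 151 CPM with shMed4 #1 and 181, 179 and 180 CPM with shMed4 #4. It fell with shMed4 #1 (log2 fold change -0.14, edgeR adjusted p = 0.0361), but this call was lost without shMed4 #1 replicate 3 (log2 fold change -0.08, edgeR adjusted p = 0.313), without NTC replicate 1 (0.084) or without NTC replicate 3 (0.099). The direct difference between the hairpins was not called for Psma7 (0.12, edgeR adjusted p = 0.0851). Psma1, Psma3 and Psma5 passed with neither hairpin, at log2 fold changes from -0.10 to 0.07.

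Psma8, the alpha subunit of the testis proteasome, had 0 reads in the 9 libraries, which allows up to 0.0408 CPM over their 73489209 reads (3 reads, counting error only). Psmb11, the beta subunit of thymic cortical epithelium, had 3 reads in all. Neither was tested.

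The beta ring holds the catalytic subunits. Psmb5, with the chymotrypsin-like site, was at 30.1, 27.9 and 30.2 CPM in NTC, 25.3, 27.6 and 29.5 CPM with shMed4 #1 and 27.9, 22.5 and 26.2 CPM with shMed4 #4. The groups overlapped, and Psmb5 was not called (log2 fold change -0.10 ± 0.093 and -0.20 ± 0.094, standard error; edgeR adjusted p = 0.433 and 0.0669). With shMed4 #4 it was called lower under upper-quartile factors (-0.25, edgeR adjusted p = 0.0246) and without shMed4 #4 replicate 1. Psmb6, with the caspase-like site, was at 66.5, 58.8 and 63.6 CPM in NTC, 57.3, 65.5 and 66.5 CPM with shMed4 #1 and 67.2, 65.1 and 62.6 CPM with shMed4 #4. It was likewise not called, at 0.00 and 0.04 (edgeR adjusted p = 0.975 and 0.609).

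Psmb7, with the trypsin-like site, was the only catalytic subunit of the 3 that passed with TMM scaling and all libraries. It was at 136, 120 and 129 CPM in NTC, 101, 117 and 117 CPM with shMed4 #1 and 117, 99.1 and 112 CPM with shMed4 #4. All 6 knockdown libraries were below the lowest NTC library, and Psmb7 fell by 0.20 on the log2 scale with shMed4 #1 (edgeR adjusted p = 0.0118) and by 0.23 with shMed4 #4 (edgeR adjusted p = 0.00306). The calls were lost without NTC replicate 1 (edgeR adjusted p = 0.0894) or shMed4 #1 replicate 1 (0.102) for shMed4 #1, and without shMed4 #4 replicate 2 (0.068) for shMed4 #4. Exons of Nek6 on the other strand overlap 11.8% of Psmb7 exon sequence, and reads of the 2 genes are not told apart if the counting ignored strand.

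Psmb1, a beta ring subunit without catalytic activity, was at 165, 173 and 178 CPM in NTC, 169, 197 and 179 CPM with shMed4 #1 and 190, 187 and 198 CPM with shMed4 #4. Only shMed4 #4 was clear of NTC, and Psmb1 rose there (log2 fold change 0.16, edgeR adjusted p = 0.0157). That call was lost without NTC replicate 1 (edgeR adjusted p = 0.083) or shMed4 #4 replicate 3 (0.0647). Psmb2, Psmb3 and Psmb4 passed with neither hairpin, at log2 fold changes from -0.07 to 0.05. In Psmb4, shMed4 #1 replicate 1 stood apart at 113 CPM beside 153 and 150 CPM in the other 2 libraries of its group.

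**Figure D3:**
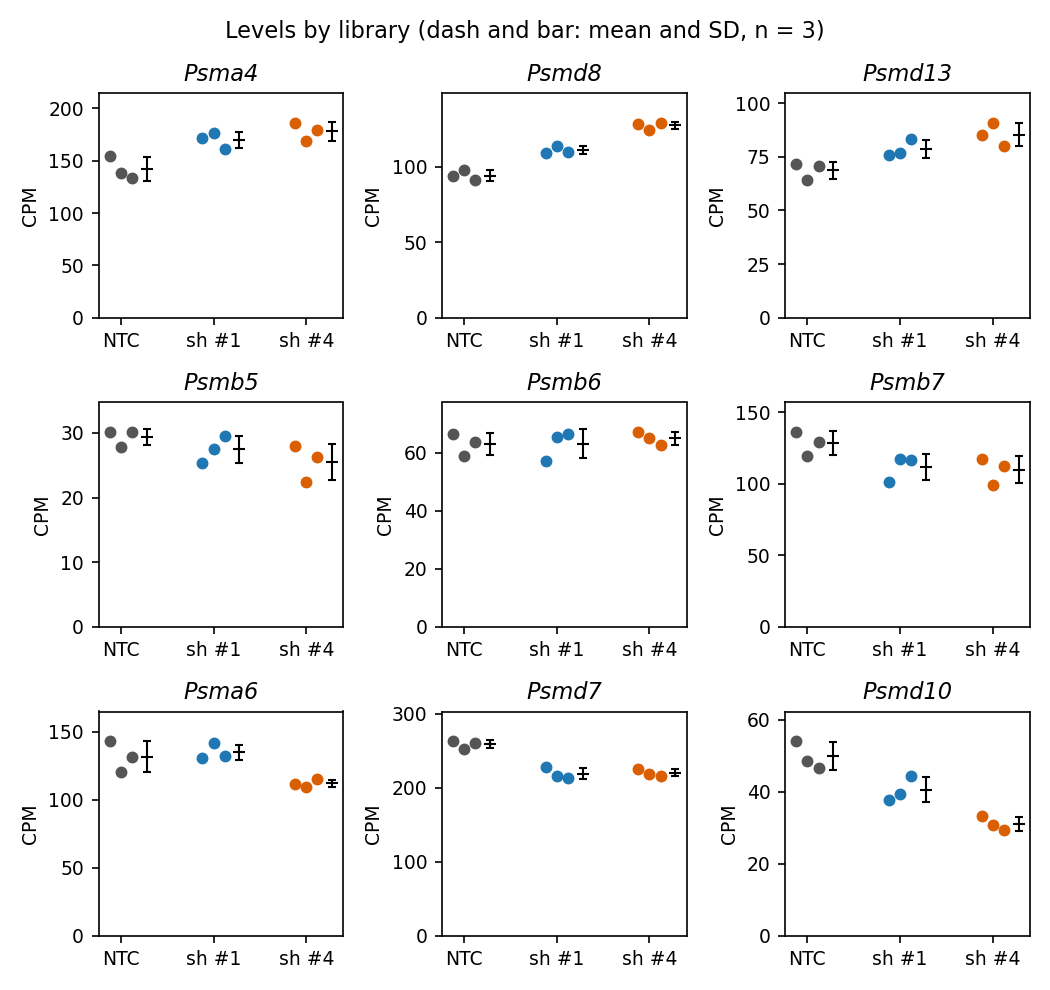
CPM (vertical axes, from 0) in each of the 9 libraries for 9 subunit genes, with mean and SD (n = 3) beside each group; sh #1 and sh #4 are the Med4 hairpins. Psma4, Psmd8 and Psmd13 are higher and Psmb7, Psmd7 and Psmd10 are lower in all 6 knockdown libraries than in NTC, Psmb5 and Psmb6 overlap, and Psma6 is lower with sh #4 only.

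The 3 catalytic subunits have interferon-inducible counterparts, which the naming rule leaves out and which replace them in the immunoproteasome. On the scale of CPM per kb of exon, Psmb8 accounted for 1.70 ± 0.286% of the Psmb5 and Psmb8 pair in the NTC libraries, for 9.15 ± 0.781% under shMed4 #1 and for 6.36 ± 1.43% under shMed4 #4 (SD, n = 3). Psmb9 made up 2.90 ± 0.429% of its pair with Psmb6 in NTC, 1.46 ± 0.506% with shMed4 #1 and 0.572 ± 0.342% with shMed4 #4. Psmb10 made up 30.7 ± 2.70% of its pair with Psmb7, then 29.2 ± 1.05% and 25.7 ± 2.08%.

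The inducible subunits thus did not move as a set, although all 3 were called with each hairpin. Of all tested genes, 41.6% were called with shMed4 #1 and 55.1% with shMed4 #4. Psmb8 rose from 1.87, 1.55 and 2.33 CPM in NTC to 8.57, 11 and 11.8 CPM with shMed4 #1 and 6.46, 7.33 and 5.52 CPM with shMed4 #4, with log2 fold changes of 2.44 and 1.73 (edgeR adjusted p = 6.1e-12 and 8.96e-08). Psmb9 fell from 4.23, 3.75 and 3.07 CPM to 0.994, 2.30 and 2.31 CPM and to 0.854, 1.12 and 0.245 CPM, with log2 fold changes of -0.96 and -2.29 (edgeR adjusted p = 0.0086 and 1.72e-06). Psmb9 (34181987 to 34187764) and Psmb8 (34197721 to 34201454) lie close together on chromosome 17, and both were at low levels. The Psmb9 call with shMed4 #1 was lost without NTC replicate 1 (edgeR adjusted p = 0.0514) or shMed4 #1 replicate 1 (0.0773). Exons on the other strand overlap 14.7% of Psmb8 (Gm20496) and 5.79% of Psmb9 (Tap1).

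Psmb10 fell by 0.29 with shMed4 #1 (edgeR adjusted p = 0.0285) and by 0.58 with shMed4 #4 (edgeR adjusted p = 4.54e-05). The median log2 fold change of its tested chromosomal neighbours was -0.54 and -0.65, and with that local shift removed Psmb10 turned to 0.24 and 0.07 (edgeR adjusted p = 0.0832 and 0.632). The call with shMed4 #1 was also lost without NTC replicate 3 (0.184) or shMed4 #1 replicate 1 (0.171) and with DESeq2 (adjusted p = 0.0774).

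**Figure D4:**
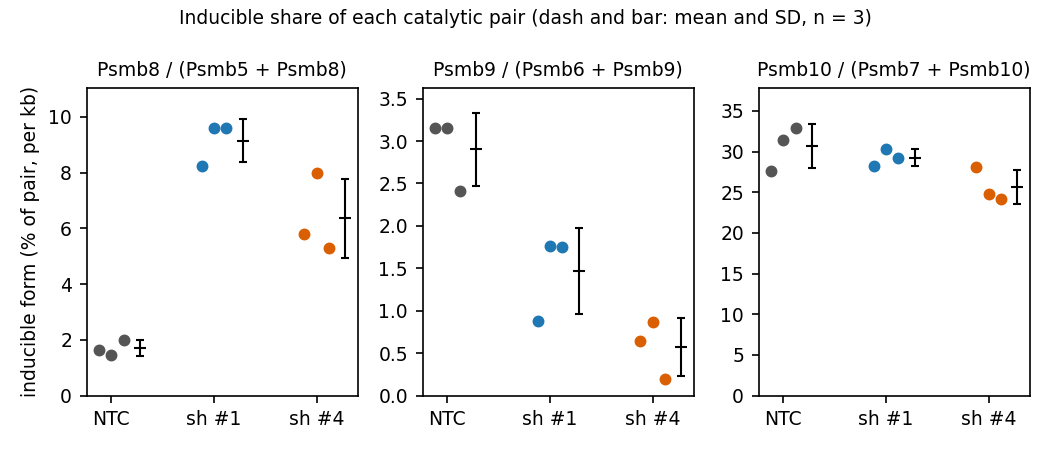
Share of the inducible form in each catalytic pair (vertical axes, % of CPM per kb of exon) in each library, with mean and SD (n = 3) beside each group; sh #1 and sh #4 are the Med4 hairpins. The Psmb8 share is higher in all knockdown libraries than in NTC (1.70% on average), the Psmb9 share is lower in all of them (2.90% in NTC), and the Psmb10 shares overlap.

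In the base of the regulatory particle, 1 of 6 ATPase genes passed with shMed4 #1 (Psmc3, lower), and 3 passed with shMed4 #4 (Psmc4 higher, Psmc1 and Psmc3 lower). Psmc4 was at 98.9, 103 and 108 CPM in NTC, 118, 110 and 110 CPM with shMed4 #1 and 134, 114 and 129 CPM with shMed4 #4. All knockdown libraries were above NTC, but the difference passed only with shMed4 #4 (log2 fold change 0.28, edgeR adjusted p = 0.000208) and not with shMed4 #1 (0.12, edgeR adjusted p = 0.109); the direct difference was 0.15 (edgeR adjusted p = 0.0528).

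Psmc3 was lower by 0.14 with shMed4 #1 (edgeR adjusted p = 0.03) and by 0.13 with shMed4 #4 (edgeR adjusted p = 0.0386), values near the threshold. Its call with shMed4 #1 was lost on leaving out NTC replicate 1, NTC replicate 3, shMed4 #1 replicate 2 or shMed4 #1 replicate 3 (edgeR adjusted p = 0.0677, 0.0698, 0.0666 and 0.107). That with shMed4 #4 was lost on leaving out any NTC library, shMed4 #1 replicate 3, or shMed4 #4 replicate 2 or 3 (edgeR adjusted p from 0.0514 to 0.15). Exons of Slc39a13 on the other strand overlap 8.25% of Psmc3. Psmc1 fell with shMed4 #4 (log2 fold change -0.16, edgeR adjusted p = 0.0132), except without shMed4 #4 replicate 3 (-0.11, 0.127). Psmc2, Psmc5 and Psmc6 passed with neither hairpin.

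Of the non-ATPase subunits of the base, the large scaffold subunits Psmd1 and Psmd2 rose with shMed4 #4, by 0.17 and 0.12 on the log2 scale (edgeR adjusted p = 0.0108 and 0.0396), and were at 0.05 each with shMed4 #1 (edgeR adjusted p = 0.488 and 0.422). The Psmd1 call was lost without NTC replicate 3 (edgeR adjusted p = 0.117). The Psmd2 call was lost without NTC replicate 1, NTC replicate 2, shMed4 #4 replicate 1 or shMed4 #4 replicate 2 (edgeR adjusted p = 0.0939, 0.108, 0.0748 and 0.0659). The ubiquitin receptor Psmd4 passed with neither (-0.03 and -0.02).

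The lid held rises and falls in about equal number: 2 of 8 genes rose and 2 fell with shMed4 #1, and 3 rose and 2 fell with shMed4 #4. Psmd8 (chromosome 7, 29174188 to 29180701), a lid subunit added late in lid assembly, was at 93.8, 97.8 and 90.9 CPM in NTC, 109, 114 and 110 CPM with shMed4 #1 and 129, 124 and 129 CPM with shMed4 #4. The 3 groups did not overlap in that order. Psmd8 rose by 18% with shMed4 #1 (log2 fold change 0.24, standard error 0.056, edgeR adjusted p = 0.000732) and by 35.3% with shMed4 #4 (0.44, standard error 0.056, edgeR adjusted p = 2.13e-08), and the hairpins differed by 0.20 (edgeR adjusted p = 0.00556).

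Psmd13, another lid subunit, was at 71.5, 64.1 and 70.6 CPM in NTC, 75.8, 76.8 and 83.2 CPM with shMed4 #1 and 85.0, 90.9 and 80.2 CPM with shMed4 #4. All knockdown libraries were above NTC, with log2 fold changes of 0.19 (edgeR adjusted p = 0.0162) and 0.31 (edgeR adjusted p = 0.000105). The call with shMed4 #1 was lost without NTC replicate 2 (0.121) or shMed4 #1 replicate 3 (0.109). Exons of Sirt3 on the other strand overlap 10.1% of Psmd13 exon sequence.

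Psmd7 (chromosome 8, 107580381 to 107588464), the inactive partner of the deubiquitinase Psmd14, fell by about the same amount with each hairpin. It was at 263, 253 and 260 CPM in NTC, 227, 216 and 213 CPM with shMed4 #1 and 226, 219 and 216 CPM with shMed4 #4, so that both knockdown groups lay below NTC and overlapped each other. The log2 fold changes were -0.24 and -0.23 (standard error 0.050, edgeR adjusted p = 0.000146 each). Psmd14 itself was lower than NTC in all shMed4 #1 libraries and higher in all shMed4 #4 libraries without passing in either comparison (-0.08 and 0.13, edgeR adjusted p = 0.274 and 0.0576). Its direct difference between the hairpins, 0.21, was called (edgeR adjusted p = 0.0054).

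Among the lid genes with a scaffold role, Psmd6 fell with shMed4 #1 (-0.18, edgeR adjusted p = 0.0161) and with shMed4 #4 (-0.14, edgeR adjusted p = 0.0449). Without NTC replicate 2, shMed4 #1 replicate 1 or shMed4 #1 replicate 3 the Psmd6 call with shMed4 #1 was lost (edgeR adjusted p = 0.0771, 0.0773 and 0.0671). The one with shMed4 #4 was lost on leaving out NTC replicate 1 or 2, shMed4 #1 replicate 3, or shMed4 #4 replicate 1 or 3 (edgeR adjusted p from 0.0585 to 0.159). Psmd3 rose with shMed4 #4 (0.18, edgeR adjusted p = 0.0115), although its groups overlapped. That call was lost without NTC replicate 2 (0.115) or shMed4 #4 replicate 1 (0.0953). Psmd11 and Psmd12 passed with neither hairpin (-0.06 to -0.04).

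The 3 base chaperones that carry subunit-type names were all called with each hairpin, 2 lower and 1 higher, where 41.6 and 55.1% of all tested genes were called. Psmd10 (gankyrin, chromosome X, 140948429 to 140956728), which binds the ATPase Psmc4 while the base is assembled, was at 54.2, 48.7 and 46.8 CPM in NTC, 37.8, 39.4 and 44.4 CPM with shMed4 #1 and 33.3, 30.8 and 29.4 CPM with shMed4 #4. The groups stood apart in that order. Psmd10 was lower by 18.6% with shMed4 #1 (log2 fold change -0.30, standard error 0.079, edgeR adjusted p = 0.00257) and by 37.5% with shMed4 #4 (-0.68, standard error 0.083, edgeR adjusted p = 8.88e-09), the largest change among the members, and the direct difference was -0.38 (edgeR adjusted p = 0.000723). Its partner Psmc4 rose with shMed4 #4, as given above.

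Psmd5, a chaperone of the base that binds Psmc2, was at 143, 128 and 132 CPM in NTC, 110, 107 and 116 CPM with shMed4 #1 and 115, 112 and 113 CPM with shMed4 #4. It fell to a like extent with both, by 0.28 (edgeR adjusted p = 0.000131) and 0.25 (edgeR adjusted p = 0.000333) on the log2 scale. Psmd9, a chaperone that binds Psmc3, was at 20.9, 19.2 and 22.2 CPM in NTC, 24.7, 25.9 and 28.2 CPM with shMed4 #1 and 22.9, 26.2 and 25.7 CPM with shMed4 #4. It rose by 0.34 (edgeR adjusted p = 0.00497) and by 0.26 (edgeR adjusted p = 0.0236). The Psmd9 call with shMed4 #4 was lost without NTC replicate 2 (0.112), shMed4 #4 replicate 2 (0.0807) or shMed4 #4 replicate 3 (0.0662). Exons of Gm26745 overlap 25.5% of Psmd9 on the other strand.

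Tested directly against each other, the hairpins differed in 3 higher and 2 lower of the 34 genes with shMed4 #4 minus shMed4 #1, where 14.2% of all tested genes were called higher and 13.9% lower. The 3 higher were the lid genes Psmd3, Psmd8 and Psmd14 (0.17, 0.20 and 0.21), and the lower were Psma6 and Psmd10. For Psmd3 the difference (edgeR adjusted p = 0.0284) was lost without shMed4 #1 replicate 2 (0.0828), shMed4 #1 replicate 3 (0.0875) or shMed4 #4 replicate 1 (0.184). Leaving out shMed4 #1 replicate 1 gave 3 core particle genes lower with shMed4 #4 than with shMed4 #1 in place of 1, and leaving out shMed4 #1 replicate 2 gave 1 higher in place of 0.

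Member genes lie on 16 chromosomes, and their changes were read beside those of their surroundings. For each member the median log2 fold change of the 25 tested genes on either side was taken, which ranged from -0.19 to 0.15 with shMed4 #1 and from -0.23 to 0.23 with shMed4 #4. Across the 34 members it correlated with the member's own change at r = 0.61 (rho = 0.56) with shMed4 #1 and r = 0.58 (rho = 0.55) with shMed4 #4. Across 14327 tested genes of all levels, r was 0.25 and 0.26 and rho was 0.36 with each hairpin. Both axes come from the same libraries and genes are not independent, so these are descriptions.

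With this local shift removed, 6 calls with shMed4 #1 ended: Psma7, Psmb7, Psmc3, Psmd5, Psmd7 and Psmd9 (edgeR adjusted p from 0.0576 to 0.924). With shMed4 #4, 9 ended: Psma6, Psmb7, Psmc1, Psmc3, Psmd1, Psmd2, Psmd5, Psmd6 and Psmd9 (edgeR adjusted p from 0.186 to 0.964). The hairpin differences of Psma6 and Psmd3 ended as well (edgeR adjusted p = 0.142 and 0.198). Removing the shift also added calls, all of them higher. With shMed4 #1 these were Psma5, Psmb1 and Psmc2 (edgeR adjusted p = 0.041, 0.0116 and 0.00401). With shMed4 #4 they were Psma7, Psmc2, Psmd4 and Psmd14 (edgeR adjusted p from 0.0021 to 0.0194). A hairpin difference was added for Psma7 (edgeR adjusted p = 0.00951). Upper-quartile factors ended the shMed4 #4 calls of Psma2, Psmb1, Psmd1, Psmd2, Psmd3 and Psmd9 (edgeR adjusted p from 0.0563 to 0.205). They added falls of Psma3, Psmb5, Psmc2 and Psmc6 with shMed4 #4 (edgeR adjusted p from 0.00782 to 0.0366). In the hairpin difference they added a lower Psma5 (edgeR adjusted p = 0.0411). DESeq2 ended the calls of Psma7 with shMed4 #1 (adjusted p = 0.0572), of Psmc3, Psmd6 and Psmd9 with shMed4 #4 (0.0636 to 0.102) and the Psmd3 difference (0.0566). DESeq2 size factors in edgeR ended the Psmd6 call with shMed4 #4 (edgeR adjusted p = 0.0505). The Psmc4 hairpin difference was called with these size factors and without a low-count filter (edgeR adjusted p = 0.0453 and 0.0473). Without a low-count filter, the calls of Psma7 and Psmc3 with shMed4 #1 and of Psmc3 and Psmd6 with shMed4 #4 ended. Psma4, Psmd8 and Psmd10 kept their call with each hairpin under every alternative fit and with any single library left out, and so did Psmc4, Psmd7 and Psmd13 with shMed4 #4.

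**Figure D5:**
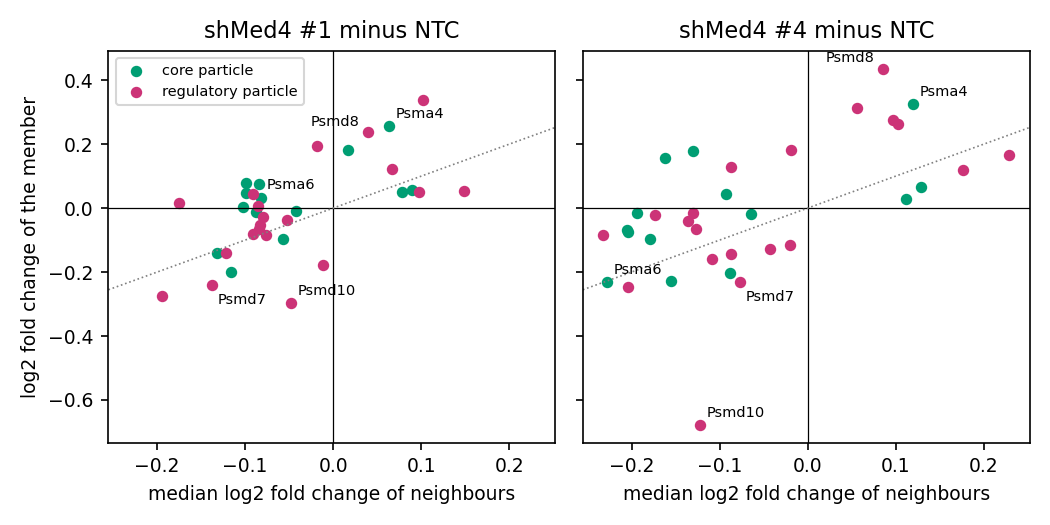
Log2 fold change of each of the 34 tested subunit genes (vertical axis) against the median log2 fold change of its 25 tested neighbours on each side (horizontal axis), with shMed4 #1 and shMed4 #4 against NTC; the dotted line marks equality. Most members lie in the lower left or upper right (r = 0.61 and 0.58), Psma6 lies on the line with shMed4 #4, and Psmd10 and Psmd8 lie farthest from it there.

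Levels of different subunits were compared per kb of exon. In NTC they ran from 2.87 CPM per kb for Psmd9 to 114 CPM per kb for Psmd7, with a median of 37.5 CPM per kb over the 34 genes. After Psmd7, the order was Psma6 at 107 ± 9.38, Psma5 at 98.5 ± 5.36, Psmd2 at 94.4 ± 1.75 and Psmc1 at 90.2 ± 0.668 CPM per kb (SD, n = 3), in which each of these neighbours differed by less than the larger SD of the pair, except Psmd2 and Psmc1. The chaperones Psmd10 and Psmd5 were at 34.0 and 18.6 CPM per kb. Of the catalytic subunits, Psmb7 (37.5 ± 2.45 CPM per kb), Psmb6 (33.6 ± 2.09) and Psmb5 (32.7 ± 1.44) lay between the ranks 17 and 24 of the 34 genes on this scale. On the length of the principal transcript in place of all merged exons, a scale chosen after the data were seen, Psma7 came first at 199 CPM per kb and Psmd9 stayed last at 8.0 CPM per kb, and the catalytic subunits were far apart, at 111 CPM per kb for Psmb7, 78.9 for Psmb6 and 32.7 for Psmb5.

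Promoters were read from RefSeq on GRCm38.p6, from 250 bases before to 50 bases after the start, and 29 of the 36 genes had an entry. The genes without one were not searched. They were 3 of the 6 that fell with both hairpins (Psmb7, Psmc3 and Psmd7), Psmb1 and Psmd3, called with shMed4 #4, 1 of the 15 that passed with neither (Psmb2), and the untested Psma8. The letters TGACNNNGC, the core of the antioxidant response element that NFE2L1 and related factors bind, occurred on either strand in 5 of the 29 (17.2%) and in 14% of all 27025 promoters in the table. CCAAT, the box bound by NF-Y, occurred in 12 of the 29 (41.4%) and in 41.1% of all. The 5 with TGACNNNGC were Psmb5, Psmb6, Psmc6, Psmd9 and Psmd12, of which only Psmd9 was called with either hairpin. For Psmd9 the GENCODE M21 start of the gene (123169413) lies far upstream of the RefSeq start used here. The stretches around a match are shown for an uncalled catalytic subunit and for members that changed, with the matched letters in capitals, 5′ to 3′ on the strand of the gene.
Psmb5 (not called; chr14:54618020-54618056, minus strand): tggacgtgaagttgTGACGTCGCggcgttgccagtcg
Psmd9 (higher with both; chr5:123228145-123228181, plus strand): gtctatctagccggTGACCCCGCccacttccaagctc
Psma2 (higher with both; chr13:14613174-14613206, plus strand): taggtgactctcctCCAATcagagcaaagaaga
For Psmd10, the member with the largest change, the 120 bases before the RefSeq start are shown (chrX:140956712-140956831, minus strand). They include the GENCODE M21 start of the gene (140956728). They hold no TGACNNNGC and 2 inverted CCAAT boxes, read as ATTGG. A further CCAAT lies 230 bases before the RefSeq start, outside this stretch.
Psmd10: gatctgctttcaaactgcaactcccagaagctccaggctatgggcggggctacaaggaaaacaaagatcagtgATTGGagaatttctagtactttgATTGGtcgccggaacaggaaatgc

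Genes that act with the proteasome were counted in the same fit, where 21.8% of all tested genes were higher and 19.8% lower with shMed4 #1, and 27.8% and 27.3% with shMed4 #4. The lists hold few genes, and their counts are descriptions. Of the regulatory particle subunits outside the naming rule, Sem1 rose (log2 fold change 0.38 and 0.33, edgeR adjusted p = 1.45e-05 and 7.83e-05) and the ubiquitin receptor Adrm1 did not pass. Sem1 neighbours had a median of 0.34 and 0.46, and without that shift Sem1 was not called with either hairpin. Of 5 core assembly chaperones, 1 rose with shMed4 #1 (Pomp) and 3 with shMed4 #4 (Pomp, Psmg2 and Psmg3). Pomp, which helps the beta rings mature, was at 0.17 and 0.27 (edgeR adjusted p = 0.0401 and 0.000891), the first of which was lost under 5 of the alternative fits, among them DESeq2 (adjusted p = 0.096), and without NTC replicate 1 or 3 or shMed4 #1 replicate 1 or 3 (edgeR adjusted p from 0.0733 to 0.204). With the local shift removed, Pomp was not called with shMed4 #4 either (edgeR adjusted p = 0.0773). The Psmg2 value with shMed4 #4 (0.25, edgeR adjusted p = 0.0135) did not pass without NTC replicate 2 or shMed4 #4 replicate 1 or 2, and that of Psmg3 (0.50, edgeR adjusted p = 0.0227) did not without NTC replicate 2 or 3 or shMed4 #4 replicate 1 or 3 (edgeR adjusted p up to 0.0819), or with DESeq2 (adjusted p = 0.0741).

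Alternative caps of the core differed by gene. Psme1, a subunit of the interferon-inducible cap, rose from 46.3, 53.9 and 50.8 CPM in NTC to 87.4, 92.9 and 74.1 CPM with shMed4 #1 and 78.9, 73.3 and 69.5 CPM with shMed4 #4 (log2 fold change 0.75 and 0.56, edgeR adjusted p = 1.91e-10 and 1.16e-07). Its partner Psme2 rose with shMed4 #1 only (0.27, edgeR adjusted p = 0.00224; -0.08 with shMed4 #4, edgeR adjusted p = 0.378), and the difference between the hairpins was called (-0.35, edgeR adjusted p = 0.000255). Over the 5 genes of caps and their inhibitor, 2 rose and 3 fell with shMed4 #1, and 1 rose and 1 fell with shMed4 #4, the last being Psme4. Of the 3 falls with shMed4 #1, those of Psme4 and Psmf1 ended without NTC replicate 2 (edgeR adjusted p = 0.0573 and 0.0543), that of Psmf1 also without shMed4 #1 replicate 1 (0.155), and those of Psme3 and Psmf1 with the local shift removed (0.339 and 0.175). The fall of Psme4 with shMed4 #4 (-0.15, edgeR adjusted p = 0.0261) ended without shMed4 #4 replicate 1 (0.246), NTC replicate 1 (0.0694) or NTC replicate 2 (0.101), with no low-count filter (0.0874), with the local shift removed (0.158) and with DESeq2 (adjusted p = 0.0546). Among 9 proteasome-bound enzymes and shuttles, 3 rose and 1 fell with shMed4 #1 and 3 rose and 0 fell with shMed4 #4. The ubiquitin shuttle Rad23b was at 0.26 and 0.33 (edgeR adjusted p = 0.000274 and 6.54e-06). With the local shift removed all 4 calls with shMed4 #1 ended: Uchl5, Ube3c, Ecpas and Rad23b (edgeR adjusted p = 0.118, 0.186, 0.734 and 0.303), with Ecpas turned from 0.13 to -0.03. Without NTC replicate 2 those of Uchl5, Ube3c and Ecpas ended (edgeR adjusted p = 0.0631, 0.055 and 0.0974), without NTC replicate 3 those of Uchl5 and Ecpas (0.065 and 0.229), and without shMed4 #1 replicate 1 that of Uchl5 (0.272). Without shMed4 #1 replicate 2 or 3, or shMed4 #4 replicate 2, that of Ecpas ended (0.0862, 0.106 and 0.0522), and both Uchl5 and Ecpas ended with DESeq2 (adjusted p = 0.065 and 0.0771) and upper-quartile factors. Ecpas also ended with no low-count filter, with the replicate block and with only the libraries compared (edgeR adjusted p = 0.0667, 0.0556 and 0.0533). With shMed4 #4, the rise of Ubqln4 ended without NTC replicate 1 (0.0748) and with upper-quartile factors (0.0842).

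Of 12 tested genes of the NFE2L1 route and related factors, 2 rose and 2 fell with shMed4 #1 and 1 rose and 5 fell with shMed4 #4. Nfe2l1 itself was at 571, 592 and 592 CPM in NTC, 556, 574 and 548 CPM with shMed4 #1 and 540, 514 and 517 CPM with shMed4 #4. Only the shMed4 #4 libraries lay below all NTC libraries, and Nfe2l1 fell there by 0.16 (edgeR adjusted p = 0.00434) and not with shMed4 #1 (-0.07, edgeR adjusted p = 0.284; direct difference -0.10, edgeR adjusted p = 0.135). The related factor Nfe2l2 fell with both (-0.28 and -0.34, edgeR adjusted p = 0.000128 and 4.94e-06), as did the partner Mafg (-0.26 and -0.36, edgeR adjusted p = 0.000275 and 8.19e-07). The partner Mafk rose (0.48 and 0.24, edgeR adjusted p = 1.17e-05 and 0.017), the latter not without NTC replicate 1 (0.113) or with upper-quartile factors (0.0525). The other falls with shMed4 #4 were Ngly1, the glycanase that acts on NFE2L1, and Keap1, which holds NFE2L2 in check (-0.34 and -0.18, edgeR adjusted p = 0.0106 and 0.0175). Both ended without NTC replicate 2 (0.0589 and 0.0545), Ngly1 also without NTC replicate 1 (0.053) and with the local shift removed (0.0666), and Keap1 also without shMed4 #4 replicate 2 (0.128), with no low-count filter (0.0659) and with DESeq2 (adjusted p = 0.0513). Exons of Gm16754 on the other strand overlap 10.9% of Keap1. The rise of Maff with shMed4 #1 (0.33, edgeR adjusted p = 0.00396) ended without NTC replicate 2 (0.05003) and with the local shift removed (0.267).

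Upstream of the proteasome, the ubiquitin-activating enzyme Uba1 rose with both hairpins (0.51 and 0.72, edgeR adjusted p = 8.62e-11 and 4.12e-15), on chromosome X beside neighbours with a median of 0.47 and 0.50. With that shift removed its call with shMed4 #1 ended. Uba6, the other ubiquitin-activating enzyme, rose with shMed4 #4 (0.47, edgeR adjusted p = 1.34e-07), and the hairpins differed by 0.31 (edgeR adjusted p = 0.000305). Of 5 genes for ubiquitin and its activating enzymes, 1 rose and 1 fell with shMed4 #1 and 2 rose and 0 fell with shMed4 #4. The fall was of Rps27a, which encodes ubiquitin fused to a ribosomal protein (-0.25, edgeR adjusted p = 0.000324). Exons of Clhc1 on the other strand overlap 8.11% of Rps27a.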

How the data were processed

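D2A1-d total RNA was read on a BGISEQ-500 sequencer, as the labels' protocols give it. The deposited values are raw read counts per gene. The submitters' processing notes name STAR, HTSeq, mm10 and GRCm38; annotation release and strand setting were not given in the sources. Each file's 5 summary lines (49.5 to 51.6% of records had no feature) stayed out of all totals and fits. Of 55335 identifiers, 55154 matched a symbol. Coordinates and exon lengths came from GENCODE M21, promoters from RefSeq (GRCm38.p6).

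Counts were fitted in R 4.3.3 with edgeR 4.0.16 (filterByExpr, minimum count 10, TMM, quasi-likelihood) in 1 model of the 3 groups over all 9 libraries, which tested 14335 genes. A call is a Benjamini-Hochberg adjusted p under 0.05 over all genes tested. Levels are TMM-scaled CPM. The steps were tested on simulated data. The labels name no molecular identifiers, so the floor of 3 counts covers counting error only.

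Values by library were given for the catalytic and tissue-restricted subunits and for the 3 highest and 3 lowest fold changes per particle and hairpin. Psmd14, Psmb4, Psmb8, Psmb9, Psme1 and Nfe2l1 were described further after their values were seen. The members and gene lists were chosen with earlier results of these data known. Alternatives were DESeq2 1.42.0, DESeq2 size factors, upper-quartile factors, limma-voom (limma 3.58.1), other count filters, only the libraries compared, the replicate block, leaving out each library, removal of the local chromosomal shift, other thresholds and the regulatory particle without chaperones. Paaf1, a further assembly chaperone, was not analysed here. Some genes of the lists are not reported here. HTSeq's files list 10.5 to 11.6% of records as not unique, and Psmb5, Psmb6 and Psmb7 have processed pseudogenes, so their counts may be too low. No 2 libraries of a group looked like the same library (chi-square of their counts 1.53 to 2.95 per degree of freedom).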

Additional observations from a re-analysis of the deposited data

Results flagged for a closer look

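The direct test of shMed4 #4 minus shMed4 #1 called a difference between the hairpins for 5 of the 34 member genes (log2 scale, edgeR adjusted p under 0.05): Psmd14 0.21, Psmd8 0.20, Psmd3 0.17, Psma6 -0.26 and Psmd10 -0.38. This was 14.7% of the members, where 28% of all tested genes were called. The hairpins also differed in Med4 itself, by 0.67, so the extent of knockdown and the hairpin used cannot be told apart.

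The same test called 13 further genes of the pathway lists, where 28% of all tested genes were called. They were 2 of 3 inducible subunits, 3 of 5 caps and inhibitor, 2 of 5 assembly chaperones and 3 of 5 ubiquitin genes and activating enzymes. In the other lists, 1 of 9 enzymes and shuttles, 2 of 12 NFE2L1 route genes and 0 of 2 regulatory particle subunits were called. Among the inducible subunits and caps the genes called were Psmb8 (-0.70), Psmb9 (-1.33), Psme1 (-0.20), Psme2 (-0.35) and Psme3 (0.19). Assembly chaperones were Psmg2 (0.29) and Psmg3 (0.57). The others were Ubqln4 (0.15), Vcp (-0.14), Mafk (-0.24), Rps27a (0.17), Uba1 (0.20) and Uba6 (0.31). Each of Psmb9, Psme1, Psmg2, Psmg3, Ubqln4, Vcp, Mafk and Rps27a lost this call when at least 1 of the shMed4 libraries was left out: the highest edgeR adjusted p was 0.12 for Psmb9 (without shMed4 #4 replicate 3), 0.257 for Psme1 (without shMed4 #1 replicate 2), 0.0608 for Psmg2 (without shMed4 #1 replicate 3), 0.0791 for Psmg3 (without shMed4 #1 replicate 1), 0.135 for Ubqln4 (without shMed4 #1 replicate 2), 0.133 for Vcp (without shMed4 #1 replicate 3), 0.0915 for Mafk and 0.116 for Rps27a (both without shMed4 #1 replicate 1). With DESeq2 those of Psme1, Psmg3, Ubqln4 and Mafk ended (adjusted p = 0.109, 0.0736, 0.0841 and 0.0805). With the local shift removed, Psme1 and Vcp ended (edgeR adjusted p = 0.516 and 0.935), with Vcp at -0.007. Ubqln4 also ended with upper-quartile factors, no low-count filter, the replicate block and only the libraries compared (edgeR adjusted p from 0.057 to 0.0738). Mafk also ended with no low-count filter (edgeR adjusted p = 0.0505).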

How the results depend on the processing

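Counts of members called and their medians were recomputed under each alternative. Limma-voom, DESeq2 size factors, the filter of 1 CPM in 3 libraries and the fit of only the libraries compared left all 12 counts within 1.5 times and all 6 medians within their spread. The replicate numbers do not pair the libraries (same-number correlations of -0.15 to 0.12), and with the replicate block all 12 counts and 6 medians likewise held, while 3 single genes lost their call. DESeq2 and no low-count filter each left 1 core gene lower with shMed4 #1 in place of 2.

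Upper-quartile factors gave, with shMed4 #4, 1 core gene higher and 4 lower and 3 regulatory particle genes higher; 2 core genes were lower than with shMed4 #1. Medians became -0.063 (core, shMed4 #4), -0.063 (regulatory, shMed4 #1) and -0.076 (regulatory, shMed4 #4). The median over all tested genes moved as well under these factors, to -0.038 with shMed4 #1 and -0.058 with shMed4 #4.

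Removing the local chromosomal shift gave 4 core genes higher and 0 lower with shMed4 #1, 0 core genes lower with shMed4 #4, 1 higher and 0 lower in the hairpin difference, and 2 regulatory particle genes lower with each hairpin. Medians became 0.11 (core, shMed4 #4), 0.018 (regulatory, shMed4 #1) and 0.079 (regulatory, shMed4 #4). It reversed Psmd4 (0.15), Psmd2 (-0.058), Psmd1 (-0.064), Psma7 (0.18), Psmc2 (0.15), Psmb10 (0.071), Sem1 (-0.13), Psme3 (0.19) and Syvn1 (0.29) with shMed4 #4, and Psmb10 (0.24) and Ecpas (-0.028) with shMed4 #1. A change of sign in a gene that passed neither way was not counted as a reversal.

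At an adjusted p under 0.01, core genes numbered 1 higher and 0 lower with shMed4 #1 and 1 higher with shMed4 #4, and regulatory particle genes 3 lower with shMed4 #1 and 3 higher and 3 lower with shMed4 #4. At 1.5-fold or more every count was 0, except 1 regulatory particle gene lower with shMed4 #4. Without the chaperones, 3 regulatory particle genes were lower with shMed4 #1 and 0 in the hairpin difference. The cause of these changes was not tested beyond what each setting removes by construction.

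Leaving out 1 library at a time, rises and falls in the core particle ranged from 1 to 4 and 0 to 2 with shMed4 #1, from 2 to 3 and 1 to 3 with shMed4 #4, and from 0 to 1 and 1 to 3 in the hairpin difference. In the regulatory particle they ranged from 2 to 3 and 3 to 5 with shMed4 #1, from 4 to 8 and 3 to 6 with shMed4 #4, and from 2 to 4 higher, with 1 lower each time, in the hairpin difference. The regulatory median with shMed4 #1 ranged from -0.051 to -0.012. The smallest member change called was 0.12 on the log2 scale (Psmd2 with shMed4 #4), at a median standard error of 0.058 over the members. In the simulated data, 200 genes were changed 1.2-fold in each comparison. Of these, 57% were called in the right direction for shMed4 #1 minus NTC, 43.5% for shMed4 #4 minus NTC and 50% for shMed4 #4 minus shMed4 #1. Only those 200 genes differed in the simulation, whereas 41.6 and 55.1% of all tested genes were called with the hairpins. The adjustment of p-values is stricter where few genes differ, so these shares do not carry over to the members. Small changes may still have gone undetected at this depth with 3 libraries a group.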
